A study of Mus musculus with 17 samples.

Results

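The genes described here are the chaperones, stress sensors and stress targets that keep proteins folded in the endoplasmic reticulum (ER), the cytosol and the mitochondrion. They were chosen by name, as 42 mouse gene symbols, and all 42 were found among the 55487 genes of the count table. They divide into 15 ER chaperones and folding enzymes, 4 genes of ER-associated degradation, 4 genes of the unfolded protein response (UPR) sensors together with Xbp1, 7 genes of the ATF4 and CHOP arm, 10 cytosolic heat shock genes and the 2 subunits of the mitochondrial chaperonin.

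Each of the 17 libraries came from the kidney of 1 male mouse, 16 weeks old, on the BKS background that carries the db mutation of the leptin receptor gene Lepr. The 8 db/m animals are given as heterozygous, so they carry 1 db copy, and serve as lean controls. The 9 db/db animals are given as homozygous for the db allele, and such mice become obese and diabetic. The mutation is in every cell from conception. No drug or diet treatment is given in the labels. The genotype of a library was read from its title, since titles match both the library names and the numbers of animals in the design. The separate genotype field gives the reverse for all 17, and if it were right every direction below would turn round.

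Proteins that enter the ER are folded by chaperones such as BiP (Hspa5), GRP94 (Hsp90b1) and the lectins calreticulin and calnexin, and by disulphide isomerases of the Pdia family. When unfolded protein accumulates there, the sensors IRE1 (Ern1), ATF6 and PERK (Eif2ak3) start the UPR: IRE1 splices the Xbp1 message, ATF6 moves to the nucleus as a cleaved factor, and PERK phosphorylates eIF2alpha, which raises translation of ATF4 and then CHOP (Ddit3). In the cytosol the corresponding response runs through the factor HSF1, which induces HSP70, HSP90 and their DnaJ partners. In the kidney both tubule cells and podocytes make and recycle large amounts of membrane protein, and these pathways are studied in both.

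The promoters of several members hold the response elements by which these pathways are known to act, and 5 promoters of genes described below are shown. Each is the 250 bases before the gene's first transcribed base in RefSeq (build GRCm38.p6), 5′ to 3′ on the gene's strand, with matched elements in capitals. Herpud1 is the member that was higher in db/db kidneys and Dnaja1 the member that was lower. Hspa5 and Hsp90b1 hold the classical ER stress element, and Hspe1 holds the heat shock element that it shares with its neighbour Hspd1.
Herpud1, chr8:94386179-94386428, plus strand: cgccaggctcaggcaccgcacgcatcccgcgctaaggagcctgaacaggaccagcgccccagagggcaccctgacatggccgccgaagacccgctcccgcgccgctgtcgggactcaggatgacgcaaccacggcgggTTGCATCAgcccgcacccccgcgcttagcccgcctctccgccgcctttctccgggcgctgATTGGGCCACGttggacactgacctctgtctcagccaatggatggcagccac
Hspa5, chr2:34771840-34772089, plus strand: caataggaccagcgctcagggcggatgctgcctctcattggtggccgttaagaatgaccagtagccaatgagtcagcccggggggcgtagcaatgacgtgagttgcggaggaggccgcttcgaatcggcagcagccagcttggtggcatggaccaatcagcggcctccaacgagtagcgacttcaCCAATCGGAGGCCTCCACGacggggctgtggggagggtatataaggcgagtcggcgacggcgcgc
Hsp90b1, chr10:86705445-86705694, minus strand: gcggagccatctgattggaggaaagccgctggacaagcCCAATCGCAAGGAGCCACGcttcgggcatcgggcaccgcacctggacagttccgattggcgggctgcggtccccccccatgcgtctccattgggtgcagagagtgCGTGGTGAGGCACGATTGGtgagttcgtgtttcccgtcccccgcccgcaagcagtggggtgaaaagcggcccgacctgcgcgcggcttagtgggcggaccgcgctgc
Dnaja1, chr4:40722218-40722467, plus strand: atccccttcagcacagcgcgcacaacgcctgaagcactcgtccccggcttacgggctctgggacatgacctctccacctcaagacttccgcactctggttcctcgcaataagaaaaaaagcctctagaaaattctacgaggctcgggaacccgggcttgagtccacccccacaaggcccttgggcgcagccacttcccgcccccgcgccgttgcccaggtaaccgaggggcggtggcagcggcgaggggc
Hspe1, chr1:55087898-55088147, plus strand: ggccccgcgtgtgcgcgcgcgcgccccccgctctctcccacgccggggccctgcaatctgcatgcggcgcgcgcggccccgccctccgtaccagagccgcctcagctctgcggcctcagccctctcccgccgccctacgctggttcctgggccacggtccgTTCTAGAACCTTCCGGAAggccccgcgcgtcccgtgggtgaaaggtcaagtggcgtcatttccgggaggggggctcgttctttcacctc

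Promoters were found for 35 of the 42 members (40 promoters, since some genes have several starts) and searched on both strands. The ER stress element ERSE, CCAAT and CCACG with any 9 bases between, which binds ATF6 with the factor NF-Y, was present in 8 member genes: Hspa5, Hsp90b1, Calr, Canx, Pdia6, Dnajc3, Creld2 and Syvn1. Among all 32851 promoters of the same length, 0.113% held it. In Hsp90b1 it occurred at 2 places. ERSE-II, ATTGG and CCACG with any 1 base between, was present in Herpud1 alone among the members and in 0.0304% of all promoters. CARE, TGATGNAA, the site of ATF4 with its C/EBP partners, was present in Herpud1, Chac1 and Asns and in 3.45% of all promoters. The heat shock element HSE, GAA, TTC and GAA with any 2 bases between each, was present in Hspe1 and Hspd1 and in 0.466% of all promoters, while the UPRE core, TGACGTGG, was present in 0.563% of all promoters and in no member. The promoter windows of Hspe1 and Hspd1 overlap on opposite strands, and 2 overlapping matches form 1 block there. Manf, Hyou1, Atf6, Hspa8, Hsp90aa1, Hsp90ab1 and Hsf1 were not matched. Matches are descriptions of the letters and not tests of binding.

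Libraries held 3256427 to 7627747 gene counts and 16102 to 19328 detected genes. Markers of the proximal tubule, the main cell type of the kidney cortex, summed to 14436 to 25111 CPM (counts scaled to library size with TMM factors) in all libraries, and adrenal markers stayed at 0.7 to 3.2 CPM. The libraries did not vary only by genotype: 32.8% of the variance in log2 CPM lay along a first principal component on which the groups overlapped. Along it, db/m replicates 8, 4 and 2 and db/db replicate 1 scored lowest (-44.3, -41.9, -34.3 and -40.6), and db/db replicates 8 and 7 scored highest (79.2 and 43.1). The component thus leaned with genotype, with its highest scores in db/db and most of its lowest in db/m. Fits with it as covariate can therefore also take out part of a genotype difference. In db/m replicate 8 adipocyte markers summed to 1106 CPM, against 13.9 to 273 CPM in the other db/m libraries and 13.8 to 432 CPM in db/db, highest in replicate 9. Because the kit reads the 3′ end of each transcript, CPM does not grow with transcript length, and levels of different genes are compared below on that scale.

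Of the 39 members with enough counts to test, 1 was higher and 1 lower in db/db kidneys: Herpud1 rose and Dnaja1 fell. Of all 12131 genes tested, 7.39% were called at an adjusted p under 0.05 (quasi-likelihood F-test of edgeR, Benjamini-Hochberg), 3.91% as higher and 3.49% as lower, so the members' share was near the background. No member separated the groups without overlap, which 1.78% of all tested genes did. The median log2 fold change, db/db minus db/m, was -0.16 over the 39 members and 0.00326 over all tested genes. Values below 0 were seen for 31 of the 39 members, against 49.5% of all tested genes, and for 29 with library totals as the scaling and 25 with the first principal component as covariate. The 95% interval lay between a halving and a doubling for 32 of the 39, so a change beyond 2-fold was outside the interval for those. The other 7 (Manf, Syvn1, Xbp1, Eif2ak3, Ddit4, Hspa1b and Hspb1) varied too much between animals for that statement.

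**Figure D1:**
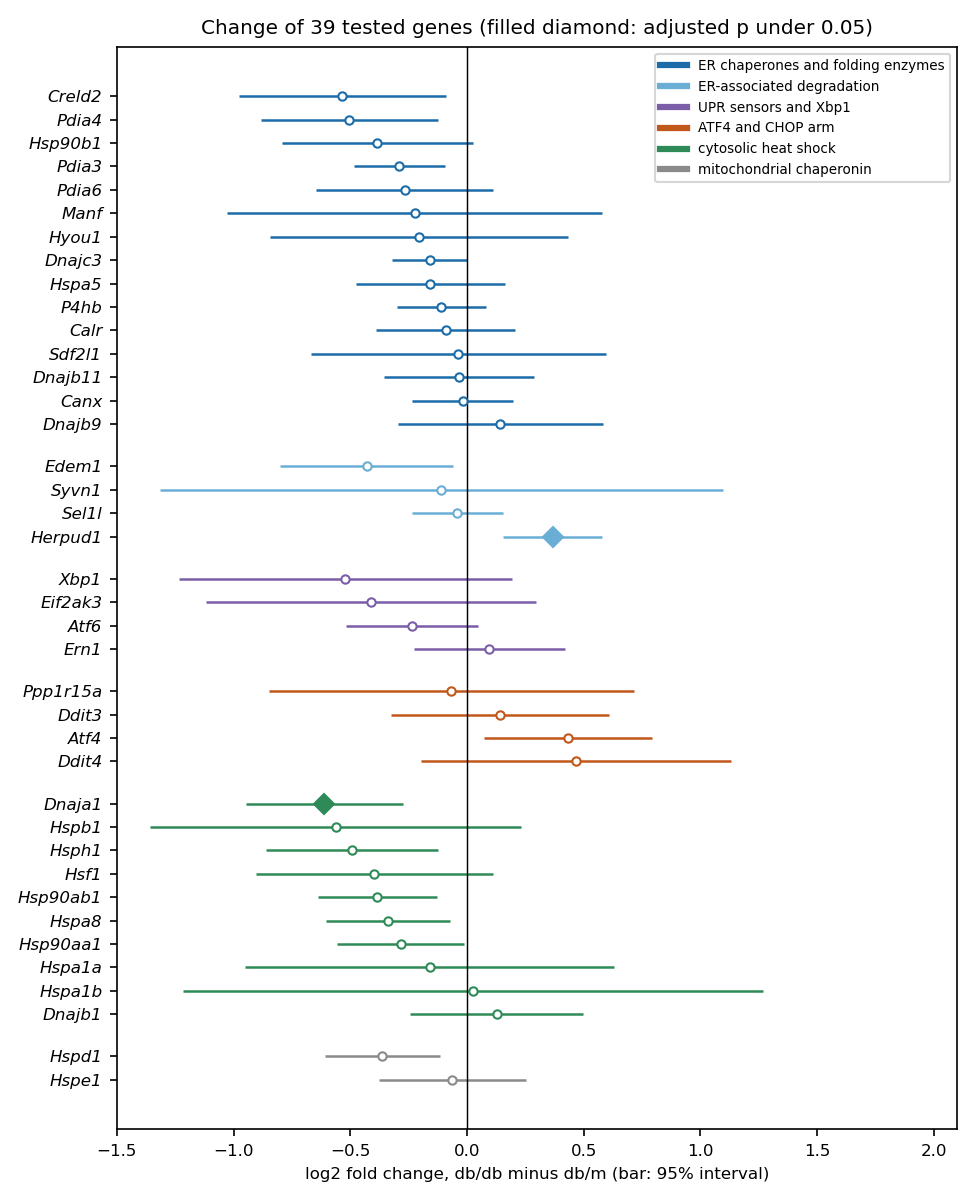
Log2 fold change (db/db minus db/m, horizontal axis) of the 39 tested members, grouped by role, with points as estimates and bars as 95% intervals over 8 db/m and 9 db/db libraries. Herpud1 and Dnaja1 (filled diamonds) are the called genes, and 14 of the 15 ER chaperones lie left of 0 without passing the test (12 with library totals as the scaling).

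The roles did not lie at the same place. Cytosolic heat shock genes had a median log2 fold change of -0.36 with 8 of 10 members below 0, and ER chaperones had -0.16 with 14 of 15 below 0. The tested genes of the ATF4 and CHOP arm had a median of 0.29 with 1 of 4 below 0. Without db/db replicate 8 the median of this arm was 0.12 with 2 of 4 below 0. The 3 members of this arm with too few counts to test (Trib3, Chac1 and Asns) were all below 0 in a fit without a filter. The sensors with Xbp1 had -0.32 and the chaperonin subunits -0.21. The degradation genes had -0.08, a value with no stable sign: it was 0.09 and 0.04 when db/m replicate 8 or 4, in that order, was left out, -0.28 without db/db replicate 1 and 0.15 with the principal component as covariate. The sensor median was -0.08 without the 4 libraries that stood apart (db/m replicate 8 and db/db replicates 4, 7 and 8) and -0.04 with the component, both settings chosen after seeing the data. The 4 libraries were chosen without a stated rule and are not the extremes of the component. On it db/db replicate 4 scored 2.82, while db/m replicates 4 and 2 (-41.9 and -34.3) and db/db replicate 1 (-40.6) were kept. With the component as covariate 10 of the 15 ER chaperones were below 0. The role medians and counts are descriptions of lists whose genes share libraries and regulators, and the difference between roles was not tested. With library totals in place of TMM, 12 of the 15 ER chaperones were below 0, because Canx and Dnajb11 crossed to 0.02 and 0.00263.

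Herpud1 encodes an ER membrane protein that joins the HRD1 ubiquitin ligase complex and helps to clear misfolded protein. Its level was 229 to 357 CPM in db/m kidneys (median 282) and 293 to 456 CPM in db/db kidneys (median 359). Of the 9 db/db libraries, 9 were above the db/m median and 5 above the highest db/m library, so the groups overlapped in part. Herpud1 had a log2 fold change of 0.37 (SE 0.10, 95% interval from 0.16 to 0.58, edgeR adjusted p = 0.0286), a ratio of 1.29. Leaving out any 1 of 6 animals (db/m replicates 1, 3, 4 and 6, db/db replicates 3 and 4) ended the call, with an adjusted p of at most 0.0752, and the fold stayed between 0.32 and 0.42. A predicted gene lies on the opposite strand, and the strand setting of the counting is not given.

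The other degradation genes were not called in the fit of all 17 libraries. Sel1l, the adaptor of the same ligase complex, was at 112 to 147 CPM in db/m (median 132) and 102 to 156 CPM in db/db (median 123). Its log2 fold change was -0.04 with a 95% interval of -0.24 to 0.16 (edgeR adjusted p = 0.855). Edem1, a lectin that extracts misfolded glycoproteins, was at -0.43 (interval -0.80 to -0.06, edgeR adjusted p = 0.163). Edem1 is thus a gene whose db/db libraries were mostly low, 8 of 9 under the db/m median, without passing the adjustment. Syvn1, the HRD1 ligase itself, ran from 0 to 21.1 CPM in db/m and from 1.4 to 28.2 CPM in db/db, the widest relative range of the degradation genes.

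Among the ER chaperones none was called (0 of 15, with 3 at an unadjusted p under 0.05, against 21.1% of all tested genes; DESeq2 called 1, Pdia3). Hspa5, the BiP chaperone and usual readout of the UPR, is the most abundant of them. It was at 602 to 886 CPM in db/m (median 683) and 408 to 1025 CPM in db/db (median 645). The db/db libraries lay on both sides of the db/m range, 4 below it and 1, replicate 8, above it. Its log2 fold change of -0.16 (SE 0.15, interval -0.48 to 0.16, edgeR adjusted p = 0.609) leaves a rise of more than 0.16 outside the interval. Hsp90b1, the ER member of the HSP90 family, was at 187 to 288 CPM in db/m (median 237) and 98.8 to 320 CPM in db/db (median 137). Here 6 of the 9 db/db libraries were under the lowest db/m library while replicates 1 and 8 were among the highest of all 17, and the log2 fold change was -0.38 (SE 0.20, edgeR adjusted p = 0.269).

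The lectin chaperones were close in both groups. Calr, calreticulin, was at 342 to 585 CPM in db/m and 324 to 689 CPM in db/db, with a log2 fold change of -0.09 (interval -0.39 to 0.21). Canx, calnexin, was at 282 to 428 and 301 to 479 CPM, with -0.02 (interval -0.24 to 0.20). Both were highest of all 17 libraries in db/db replicate 8.

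Among the disulphide isomerases, Pdia3 and Pdia4 came nearest to passing. Pdia3, which works with calreticulin and calnexin, was at 171 to 245 CPM in db/m (median 223) and 145 to 206 CPM in db/db (median 186). All 9 db/db libraries were under the db/m median, and 3 were under its lowest library. In log2 terms the fold was -0.29 (SE 0.09, interval -0.49 to -0.10, edgeR adjusted p = 0.0643), and DESeq2 gave an adjusted p of 0.0365. Pdia4 was at 28.8 to 59.0 CPM in db/m (median 40.6) and 17.7 to 47.996 CPM in db/db (median 28.2), and its fold on the log2 scale was -0.50 (SE 0.18, edgeR adjusted p = 0.106). It passed without db/db replicate 8 (adjusted p = 0.0282). Pdia6 was at -0.27 and P4hb at -0.11, with edgeR adjusted p of 0.434 and 0.537.

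The ER DnaJ proteins and the small secreted or ER-resident factors completed the group. Dnajc3, a co-chaperone of BiP that also inhibits PERK, was the steadiest member, at 164 to 211 CPM in db/m and 140 to 169 CPM in db/db, and 7 of 9 db/db libraries were under the lowest db/m library. Its log2 fold change was small, -0.16 (SE 0.08, interval -0.32 to 0.00158, edgeR adjusted p = 0.242). Creld2 was at 6.45 to 19.2 CPM in db/m and 6.18 to 14.2 CPM in db/db, on the log2 scale -0.53 (SE 0.21, edgeR adjusted p = 0.145), again with all 9 db/db libraries under the db/m median. Dnajb9, the DnaJ protein that holds IRE1 in check, was the 1 ER chaperone with a value above 0, at 0.14 (SE 0.21). With the principal component as covariate Dnajb9 was at 0.46 and called (edgeR adjusted p = 0.0452). Dnajb11 was at -0.03, Sdf2l1 at -0.04, Hyou1 at -0.20 and Manf at -0.22, none of them with an edgeR adjusted p under 0.75. Of the 8 genes with an ERSE, 8 had a value below 0, 0 were called by edgeR and 0 by DESeq2. That count did not hold in every setting: Canx was at 0.02 with library totals as the scaling, and Syvn1 was at 0.24 without db/m replicate 8 and at 0.58 without the 4 libraries that stood apart. With the principal component as covariate Syvn1 was at 0.99 and called (adjusted p = 0.0295), and Pdia6 was at 0.00858.

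The sensor genes are expressed at low levels, and none was called (0 of 4 by edgeR, 0 at an unadjusted p under 0.05 and 0 by DESeq2). Ern1 was at 7.8 to 12.4 CPM in db/m and 6.3 to 13.4 CPM in db/db, with a log2 fold change of 0.10 (interval -0.23 to 0.42). Atf6 was at 26.5 to 34.9 and 15.3 to 35.3 CPM, with -0.24 (interval -0.52 to 0.05). Eif2ak3 was at 3.0 to 9.4 and 0.6 to 9.8 CPM, with -0.41 (interval -1.12 to 0.30). The 3 sensors therefore overlapped widely between genotypes. Eif2ak3 rested on 261 counts over the db/m libraries and 209 over the db/db libraries, which limits what could be seen.

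Xbp1, which encodes the factor made after IRE1 splices its message, varied between animals of 1 genotype more than between genotypes. A 3′ count does not tell its spliced from its unspliced form. It was at 15.2 to 72.0 CPM in db/m (median 31.4) and 8.4 to 59.3 CPM in db/db (median 20.5), and the log2 fold change of -0.52 had an SE of 0.34 (interval -1.23 to 0.19, edgeR adjusted p = 0.412). The 5 libraries highest in Xbp1 were db/m replicates 4, 8 and 3 and db/db replicates 1 and 6. Of the other 38 tested members, 8 had at least 4 of these 5 libraries among their own top 5, as had 6.85% of all tested genes: Pdia6, Manf, Hyou1, Syvn1, Atf6, Ppp1r15a, Hsf1 and Hspd1. Manf was at 41.4, 29.5 and 30.2 CPM in those db/m libraries and at 54.7 and 42.2 CPM in those db/db libraries, against 5.8 CPM in db/db replicate 8. Manf is a secreted ER stress factor, and Hyou1 and Pdia6 are folding proteins of the ER. Hspa5, the classical chaperone target, did not share the pattern, with 2 of the 5.

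**Figure D2:**
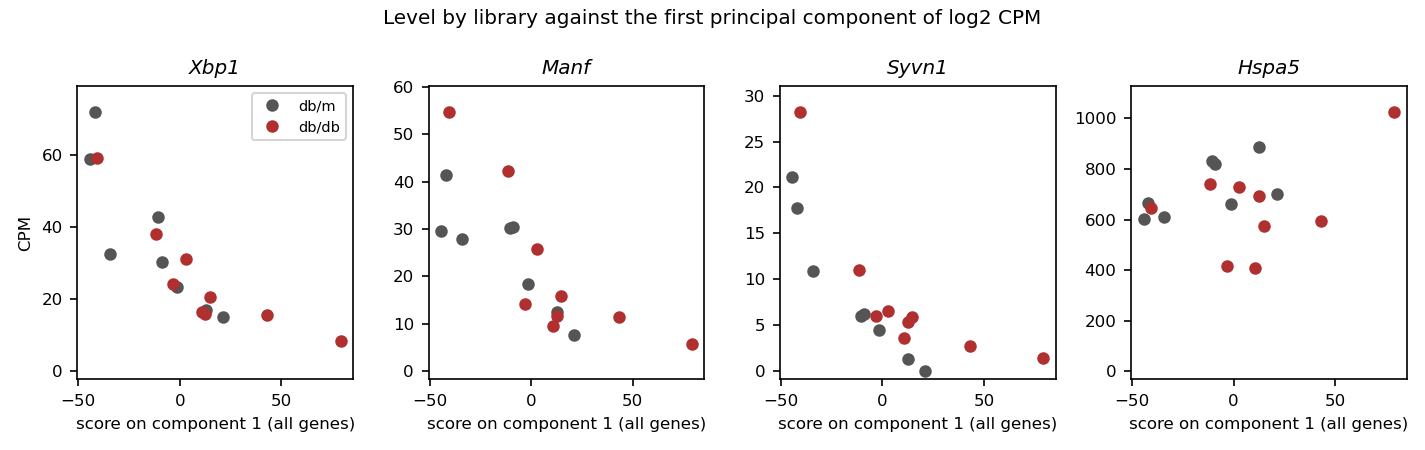
CPM of Xbp1, Manf, Syvn1 and Hspa5 (vertical axes) in each library against its score on the first principal component of log2 CPM over all tested genes (horizontal axes), db/m in grey and db/db in red. Xbp1 was at 59.1 CPM at the lowest score (-44.3, db/m replicate 8) and at 8.4 CPM at the highest (79.2, db/db replicate 8), and both groups lie along the same course.

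The 5 libraries highest in Xbp1 all had scores below 0 on the first principal component, from -44.3 to -10.6. Xbp1 was at 59.1, 72.0, 59.3 and 32.4 CPM in the 4 libraries with the lowest scores and at 8.4, 15.7 and 15.2 CPM in the 3 with the highest, db/db replicates 8 and 7 and db/m replicate 5. What this component stands for was not tested. With its score as a covariate, a setting chosen after seeing the data, Xbp1 was at 0.08 (edgeR adjusted p = 0.792), Manf at 0.32 and Hyou1 at 0.24, all above 0 and not called, while Syvn1 was called at 0.99 (adjusted p = 0.0295). The score was computed from the same counts and leaned with genotype, so the covariate can also take out part of a genotype difference.

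In the ATF4 and CHOP arm, 3 of 7 members had too few counts to test, and none of the 4 tested was called (0 by edgeR, with 1 at an unadjusted p under 0.05, and 0 by DESeq2). Atf4, the factor whose translation PERK and other eIF2alpha kinases raise, was at 109 to 162 CPM in db/m (median 140) and 106 to 333 CPM in db/db (median 188). Of the 9 db/db libraries 6 were above the highest db/m library and 3 were under the db/m median. Atf4 thus had a log2 fold change of 0.43 (SE 0.17, 95% interval from 0.07 to 0.79, edgeR adjusted p = 0.144). Replicate 8 held the 333 CPM, the other db/db libraries ended at 197 CPM, and leaving out db/db replicate 1, the lowest, gave an adjusted p of 0.0486. Without db/db replicate 8 the fold was 0.27 (adjusted p = 0.245), without the 4 libraries that stood apart 0.16 (0.621) and with the principal component as covariate 0.10 (0.591).

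Ddit3, which encodes the pro-apoptotic factor CHOP, was at 18.6 to 55.5 CPM in db/m (median 30.7) and 24.4 to 79.7 CPM in db/db (median 32.1). Apart from 79.7 CPM in db/db replicate 8, the db/db libraries ended at 37.1 CPM and lay inside the db/m range. The log2 fold change was 0.14 (interval -0.33 to 0.61, edgeR adjusted p = 0.774), and -0.10 without db/db replicate 8. Reads of Ddit3 and of Mars, the tRNA synthetase gene on the opposite strand, could be confused if strand was not used.

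The stress targets further down showed no common shift. Ddit4, an inhibitor of mTORC1 that also answers to glucocorticoids and hypoxia, was at 13.3 to 54.1 CPM in db/m and 10.1 to 59.1 CPM in db/db, with 0.47 (SE 0.32, edgeR adjusted p = 0.432). Ppp1r15a, the GADD34 subunit that lets eIF2alpha be dephosphorylated, was at 0.9 to 9.0 and 1.5 to 7.6 CPM, with -0.07 (SE 0.38). Asns, asparagine synthetase, had 75 counts over the db/m libraries and 71 over the db/db libraries, and Trib3, a pseudokinase that restrains ATF4, had 39 and 22. In a fit without a filter Asns was at -0.21 (SE 0.36, edgeR adjusted p = 0.795) and Trib3 at -0.94 (SE 0.53, 0.380).

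Chac1, a glutathione-degrading enzyme and a sensitive ATF4 target, had 38 counts over the 8 db/m libraries and 10 over the 9 db/db libraries. In db/m 1 library was at 0 and replicates 7 and 8 held 2.7 CPM each, and in db/db 3 were at 0 and the highest held 0.4 CPM. In a fit over all 25107 genes with any count the fitted log2 value was -2.004 (SE 0.69, 95% interval from -3.41 to -0.60), which did not pass (edgeR adjusted p = 0.123). With 3 counts corresponding to 0.378 to 0.924 CPM, every library but db/m replicates 2, 7 and 8 was at or under what a count of 0 allows (counting error only).

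Cytosolic heat shock genes were lower in median and held the 1 member that fell. Of the 10 tested, 5 had an unadjusted p under 0.05, all lower, against 21.1% of all tested genes. DESeq2 called 2, Dnaja1 and Hsp90ab1. Their median of -0.36 was -0.25 without db/m replicate 8 and -0.22 without the 4 libraries that stood apart. With the principal component as covariate it was -0.24. Dnaja1, an HSP70 co-chaperone of the type I DnaJ class, was at 46.0 to 98.4 CPM in db/m (median 79.0) and 30.5 to 60.6 CPM in db/db (median 46.6). Of the 9 db/db libraries, 9 were under the db/m median and 4 under the lowest db/m library. The db/m libraries themselves fell into 5 between 73.3 and 98.4 CPM and 3 between 46.0 and 55.4 CPM, the latter inside the db/db range. On the log2 scale the fold was -0.61 (SE 0.16, 95% interval from -0.95 to -0.27, edgeR adjusted p = 0.0221), a ratio of 0.655. Leaving out any 1 of db/m replicates 1, 2 and 4 ended the call, where the adjusted p was at most 0.0559, and with the principal component as covariate, where the fold was -0.35 (adjusted p = 0.0551). Smu1, a splicing gene, overlaps Dnaja1 on the opposite strand.

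Hsp90ab1, the constitutive cytosolic HSP90, was by far the most abundant member. It was at 1390 to 1878 CPM in db/m (median 1665) and 1044 to 2022 CPM in db/db (median 1223). All db/db libraries but replicate 8 were under the lowest db/m library, at 1044 to 1282 CPM, and replicate 8 was above the highest. With all 17 libraries the log2 fold change was -0.38 (SE 0.12, edgeR adjusted p = 0.0620), not past the threshold. Without db/db replicate 8 it was -0.50 and called (adjusted p = 0.00116), without db/m replicate 8 it was -0.42 and called (adjusted p = 0.0495), and DESeq2 on all libraries also called it (adjusted p = 0.0437). Replicate 8 also held the highest summed level of immediate early genes, 813 CPM against 472 to 665 CPM in the other db/db libraries, and the part of that in the result was not tested.

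**Figure D3:**
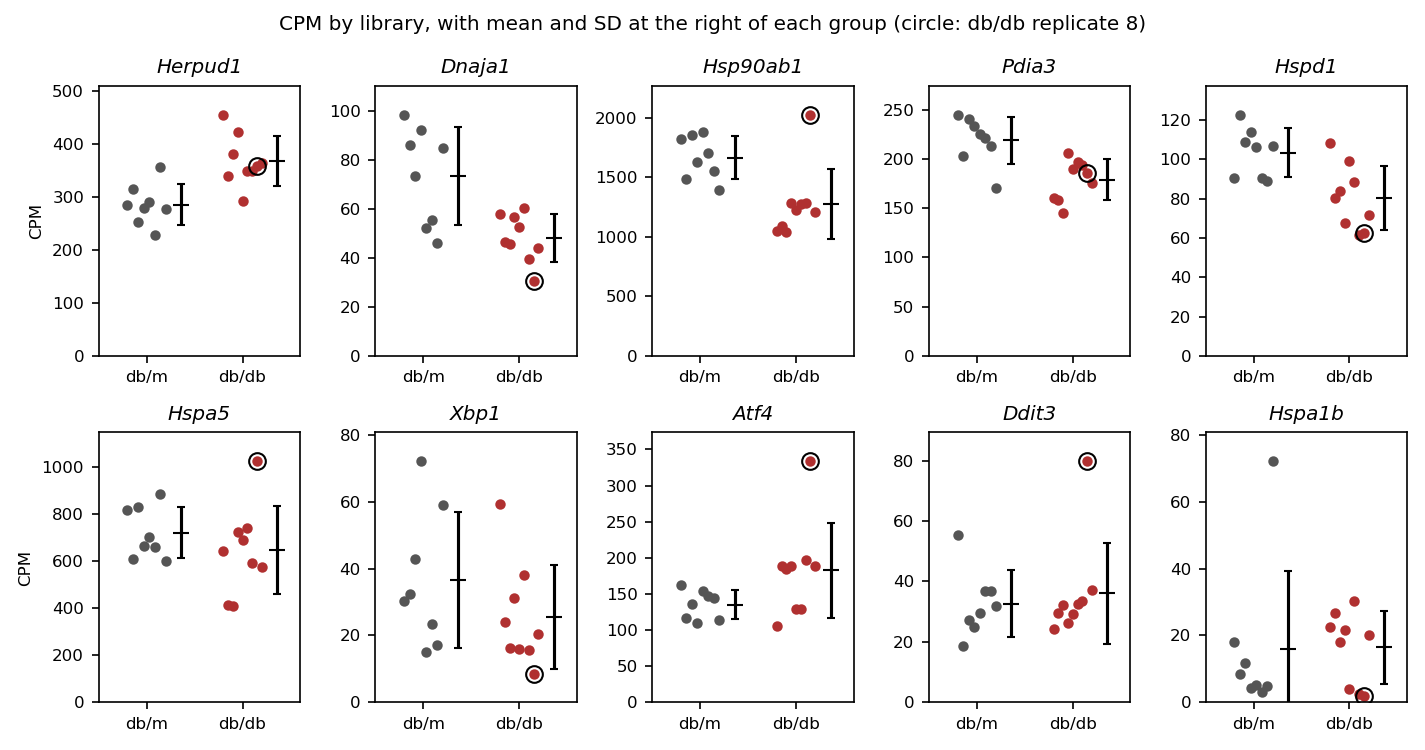
CPM of 10 members in each library (points), with the mean and SD of the 8 db/m and 9 db/db libraries at the right of each group and db/db replicate 8 circled (a bar that would pass below 0 ends at the axis). For Hsp90ab1 the circled library at 2022 CPM is the only db/db library above 1282 CPM, and for Ddit3 it stands at 79.7 CPM with the other db/db libraries at 37.1 CPM or less.

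Hspa8, Hsp90aa1, Hsph1 and Hsf1 lay on the same side without passing in the fit of all 17 libraries. Hspa8, the constitutive HSC70, was at 123 to 223 CPM in db/m (median 191) and 108 to 183 CPM in db/db (median 152), with all 9 db/db libraries under the db/m median and a log2 fold change of -0.34 (SE 0.13, edgeR adjusted p = 0.1197). It was called without db/m replicate 8, the lowest db/m library for this gene (adjusted p = 0.0404). Hsp90aa1, the inducible cytosolic HSP90, was at 81.2 to 118 and 59.9 to 113 CPM, with -0.28 (SE 0.13, edgeR adjusted p = 0.215). With the principal component as covariate Hsp90aa1 was at -0.40 and called (edgeR adjusted p = 0.0427). Hsph1, the HSP110 exchange factor of HSP70, was at 77.6 to 176 CPM in db/m and 57.1 to 104 CPM in db/db, with -0.49 (SE 0.18, edgeR adjusted p = 0.103). For Hsph1 6 of 9 db/db libraries were under the lowest db/m library. Hsf1, the factor itself, was at 4.8 to 16.2 and 4.0 to 12.6 CPM, with -0.40 (SE 0.24, edgeR adjusted p = 0.373). Hsph1 and Hsf1 were highest in db/m replicate 8. Without that library Hsph1 was at -0.37 and Hsf1 at -0.25 (edgeR adjusted p = 0.213 and 0.618). Without the 4 libraries that stood apart they were at -0.29 and -0.16, and with the principal component as covariate at -0.44 and -0.09.

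The strongly inducible genes varied widely between animals of 1 genotype. Hspa1a and Hspa1b encode the near-identical inducible HSP70 proteins on chromosome 17, and reads can be split between such copies. Hspa1b was at 3.1 to 72.0 CPM in db/m (median 6.9) and 1.9 to 30.4 CPM in db/db (median 20.2). The log2 fold change was 0.03 with an SE of 0.60 (edgeR adjusted p = 0.987), and it became 1.035 without db/m replicate 8, which held the 72.0 CPM (adjusted p = 0.248). It was 1.33 (SE 0.40, edgeR adjusted p = 0.0529) without the 4 libraries that stood apart and 1.11 (adjusted p = 0.149) with the principal component as covariate. Hspa1a was at 7.8 to 53.0 CPM in db/m (median 11.5) and 11.3 to 31.0 CPM in db/db (median 22.5). In db/m it stood at 49.2 and 53.0 CPM in replicates 1 and 8, and 8 of 9 db/db libraries were above the db/m median, with a log2 fold change of -0.16 (SE 0.38, edgeR adjusted p = 0.861) that became 0.15 without db/m replicate 8.

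Hspb1, the small heat shock protein HSP27, was at 6.0 to 39.6 CPM in db/m and 2.5 to 15.9 CPM in db/db, also with its highest value in db/m replicate 8 (-0.56, SE 0.38, edgeR adjusted p = 0.430). Without that library it was at -0.13 (adjusted p = 0.875). Dnajb1, the DnaJ partner of inducible HSP70, was at 29.2 to 76.1 and 34.4 to 62.8 CPM, with 0.13 (SE 0.18, edgeR adjusted p = 0.741). Replicate 8 of db/m, with its adipocyte markers, was thus the highest of all 17 libraries for Hspa1a, Hspa1b, Hsph1, Hspb1 and Hsf1. It also had the highest sums of all 17 for plasma and B cell markers (431 CPM) and for smooth muscle and fibroblast markers (408 CPM). Its inner medulla and osmotic sum was the highest of db/m (1684 CPM), and its proximal tubule sum the lowest of all 17 (14436 CPM). The part of other tissue or kidney regions in the heat shock values was not tested. In these bulk samples fewer cells of a type and less RNA per cell cannot be told apart.

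**Figure D4:**
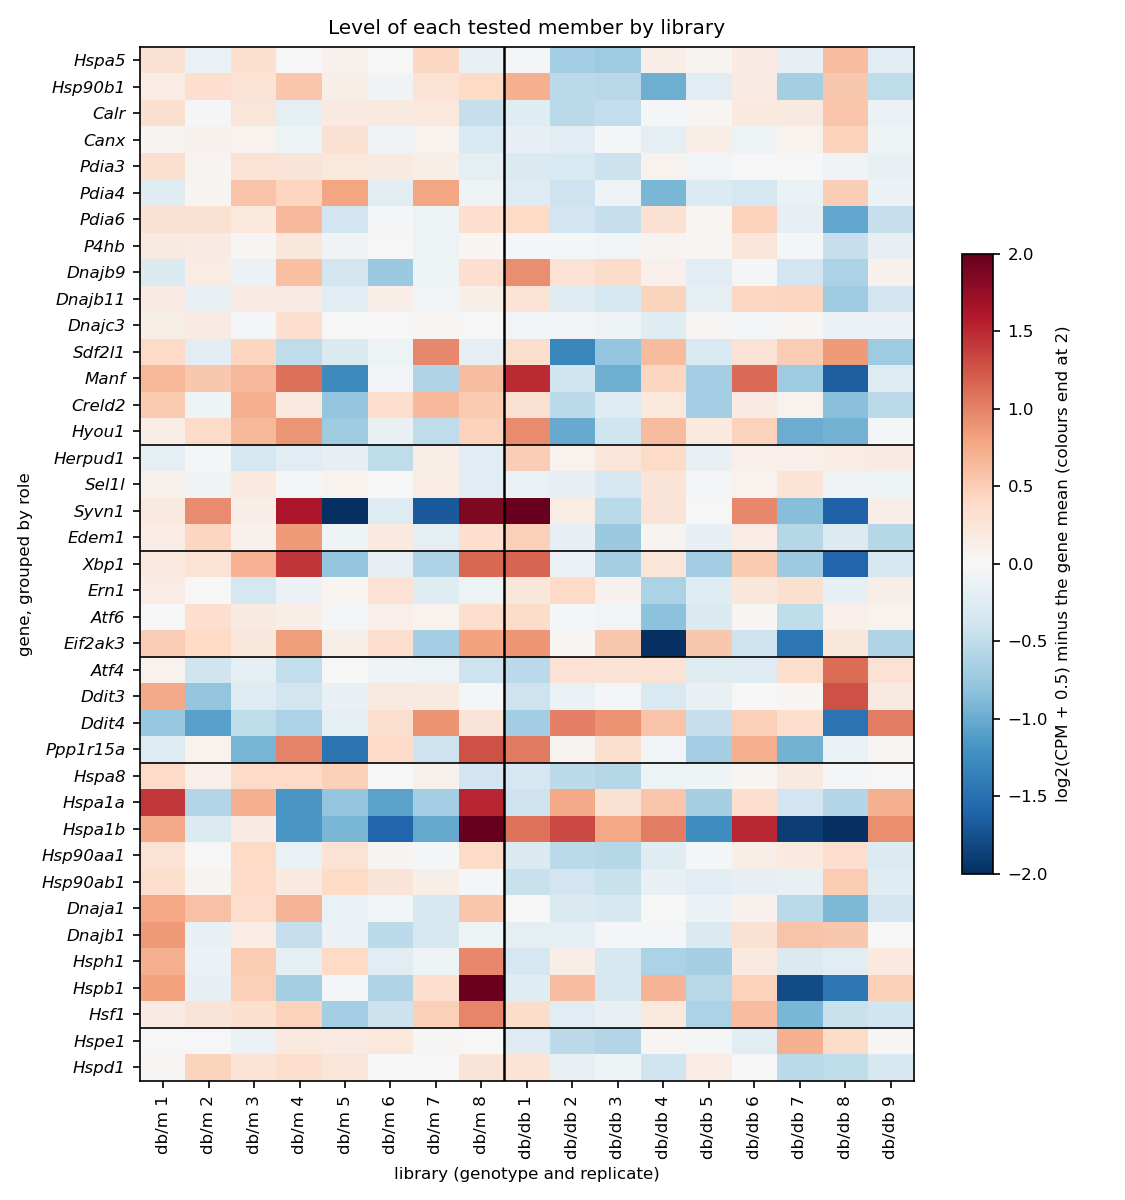
Level of the 39 tested members (rows, grouped by role and separated by lines) in the 17 libraries (columns, db/m left of the vertical line), as log2(CPM + 0.5) minus the gene's mean, with colours ending at 2. Xbp1, Manf, Hyou1 and Syvn1 are high together in libraries of both genotypes, such as db/m replicate 4 and db/db replicate 1, and Hspa1b and Hspb1 are highest in db/m replicate 8.

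Mitochondrial chaperonin is built from HSP60 (Hspd1) and its lid HSP10 (Hspe1), whose genes lie head to head on chromosome 1 behind the promoter printed above. Hspd1 was at 89.1 to 123 CPM in db/m (median 106) and 61.3 to 108 CPM in db/db (median 80.4). Of the 9 db/db libraries 7 were under the lowest db/m library, with a log2 fold change of -0.36 (SE 0.12, interval -0.61 to -0.12, edgeR adjusted p = 0.0681). It was called without db/db replicate 1 or 5 (lowest adjusted p = 0.0186). Hspe1 was at 29.1 to 37.1 CPM in db/m and 21.2 to 52.7 CPM in db/db, with -0.06 (interval -0.38 to 0.25, edgeR adjusted p = 0.865). In the main fit the pair did not show the same values although they share a promoter, and whether their folds differ was not tested. Without the 4 libraries that stood apart Hspe1 was at -0.32 and Hspd1 at -0.22 (edgeR adjusted p = 0.132 and 0.292). With the principal component as covariate Hspe1 was at -0.24 and Hspd1 at -0.23 (edgeR adjusted p = 0.299 and 0.142).

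**Figure D5:**
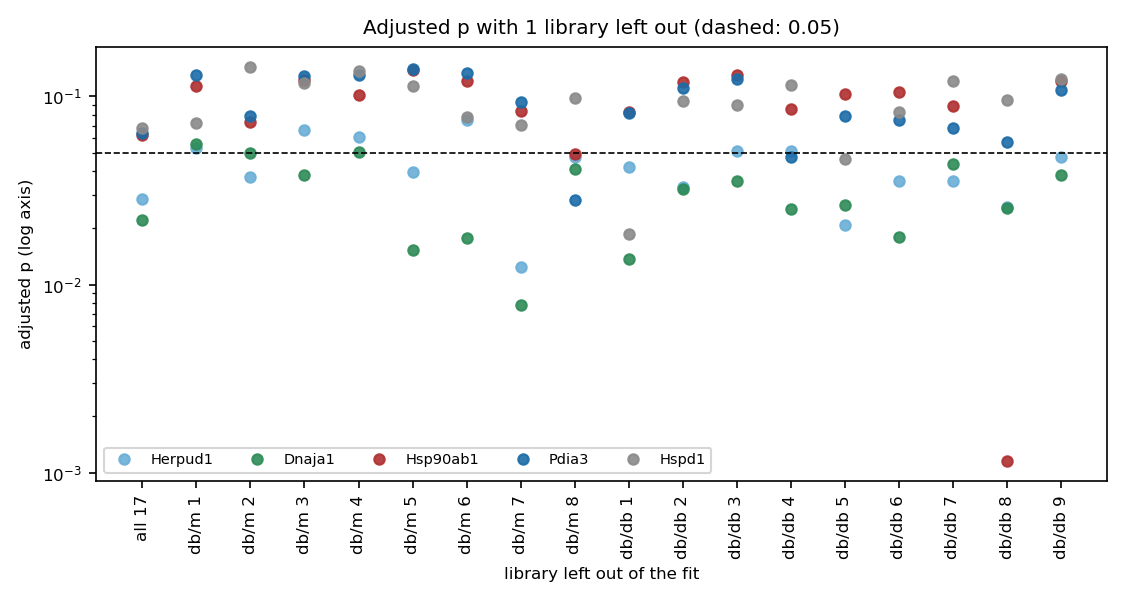
Benjamini-Hochberg adjusted p from edgeR (vertical log axis) of 5 members in the fit of all 17 libraries and in the fits that left out 1 library each (horizontal axis), with the 0.05 threshold dashed. Dnaja1 stayed under 0.05 in 14 of 17 fits and Herpud1 in 11, and Hsp90ab1 reached 0.00116 without db/db replicate 8.

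Which members pass is therefore decided by single libraries near the threshold. Over the 17 fits that left out 1 library, 0 to 5 members were called, from 0 when db/m replicate 1 or 4 was left out to 5 when it was db/m replicate 8 or db/db replicate 1. In those fits, in that order, 5.98%, 5.29%, 7.13% and 10.4% of all tested genes were called. Without db/m replicate 8 the called members were Herpud1, Dnaja1, Hsp90ab1, Hspa8 and Pdia3, and without db/db replicate 1 they were Herpud1, Atf4, Dnaja1, Edem1 and Hspd1. With the 4 libraries that stood apart left out 4 were called, all lower: Hsp90ab1 (-0.57, adjusted p = 0.000414), Hspa8 (-0.49), Pdia3 (-0.40) and Pdia4 (-0.62). In that fit Herpud1 and Dnaja1 were at 0.34 and -0.49 with adjusted p of 0.0779 and 0.0878.

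Of the other genes of these pathways, 146 of 156 listed were tested, 2 were higher and 2 lower, and their median log2 fold change was -0.02. The 4 called of 146 are a smaller share than the 7.39% of all tested genes that were called. Os9, a lectin that hands misfolded glycoproteins to the Sel1l complex, fell from 175 ± 14.6 to 136 ± 7.67 CPM (mean ± SD, n = 8 and 9; log2 fold change -0.36, SE 0.08, edgeR adjusted p = 0.00460). Dnajc1, an ER membrane DnaJ protein, fell from 100.3 ± 8.69 to 75.4 ± 10.4 CPM (-0.41, SE 0.10, edgeR adjusted p = 0.0105). Os9 thus changed against Herpud1, within the same degradation pathway. Bag1, an HSP70 exchange factor, rose from 113 ± 7.40 to 147 ± 24.0 CPM (0.37, SE 0.10, edgeR adjusted p = 0.0207), and Gdf15, a secreted stress hormone that ATF4 and p53 induce, rose from 14.7 ± 8.70 to 41.8 ± 26.9 CPM (1.495, SE 0.35, edgeR adjusted p = 0.00998). Os9, Dnajc1 and Gdf15 were called in all 17 fits that left out 1 library, and Bag1 in all but the fit without db/m replicate 4. Bag1 was also not called without a filter, without the 4 libraries that stood apart and with the principal component as covariate. Os9, Dnajc1 and Gdf15 were called in those settings. With the replicate number as a block none of them was called.

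By list, 1 of 28 further ER folding genes and 1 of 19 further degradation genes were lower and 0 were higher, where 7.39% of all tested genes were called. None of 16 further sensing and eIF2alpha genes was called (0 by edgeR, 2 at an unadjusted p under 0.05 and 0 by DESeq2). Of 25 further ATF4 and CHOP targets 1 was higher and 0 lower, with 17 above 0 and a median of 0.07, and the nearest to passing after Gdf15 were the transaminase Gpt2 (0.38, edgeR adjusted p = 0.0901) and the factor Cebpb (0.65, 0.116). Of 31 further HSF1 targets and co-chaperones Bag1 alone was called by edgeR, with a median of -0.0034. Dnaja4, a close relative of Dnaja1, was at -0.44 (edgeR adjusted p = 0.0570; called by DESeq2) and Chordc1, an HSP90 co-chaperone, at -0.43 (0.0958). The 14 cytosolic chaperonin and prefoldin genes had 0 called and a median of 0.01 (0 at an unadjusted p under 0.05 and 0 by DESeq2), and the 13 further mitochondrial chaperones and proteases had 0 called (2 at an unadjusted p under 0.05 and 0 by DESeq2). Nearest to passing elsewhere were Selenos, a selenoprotein of the degradation machinery (-0.31, edgeR adjusted p = 0.109), Trap1, the mitochondrial HSP90 (-0.26, 0.114), Traf2, which binds activated IRE1 (0.42, 0.145), and Mlec, an ER lectin (-0.39, 0.150).

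Markers of other cells moved with genotype beside these genes. Plasma cells depend on the Xbp1 pathway and hold much ER, and their 12 listed markers summed to 42.2 to 431 CPM in db/m and 13.9 to 53.6 CPM in db/db. Of 5 tested, 3 fell: Igha (54.8 ± 24.9 to 3.77 ± 2.47 CPM), Igkc and Prdm1. Of the listed 12, 2 were at 0 in every library. In the macrophage and dendritic list the sum was 316 to 475 CPM in db/m and 166 to 351 CPM in db/db, and 1 of 8 tested, H2-Aa, fell. Inner medulla and osmotic genes, a region where HSP genes are known to be high, summed to 828 to 1684 CPM in db/m and 1201 to 2391 CPM in db/db, with 4 of 11 higher, among them Aqp2 and Slc6a12, and Aqp4 lower. Their part in the chaperone values was not tested.

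Handling and time of day are known to move heat shock genes, and the labels used here give neither. The 20 immediate early genes, which answer within minutes to tissue handling, summed to 403 to 603 CPM in db/m and 472 to 813 CPM in db/db. Of 14 tested 0 were called (4 at an unadjusted p under 0.05 and 2, Fosl2 and Ier3, by DESeq2). All 14 had a log2 fold change above 0 (median 0.33), while 49.5% of all tested genes were below 0. Clock genes and the temperature-responsive Cirbp and Rbm3 summed to 1030 to 1620 CPM and 1175 to 1679 CPM, with 0 of 15 called (3 at an unadjusted p under 0.05 and 1, Per1, by DESeq2). Per1, the nearest to passing, was at 0.84 (SE 0.28, edgeR adjusted p = 0.0710). Their part in the results was not tested.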

How the data were processed

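RNA from 17 mouse kidneys (8 db/m, 9 db/db) was made into 3′ libraries with the QuantSeq forward kit, per the labels' protocols, which also speak of cultured cells in plates although the tissue field and titles say kidney. The deposited values are whole-number counts per mouse Ensembl gene. The submitters' processing notes list STAR 2.7.3a, HTSeq 2.16.2 and the human build GRCh38. For the mouse build, the annotation, the strand setting and UMIs the sources used here give nothing. Lines that name no gene stayed out of library sizes: 19.3% of reads were in no feature and 0.533% were ambiguous.

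IDs were matched to symbols for 55141 of 55487 genes. Counts were filtered with filterByExpr (minimum count 10), scaled by TMM and tested with edgeR 4.0.16 (quasi-likelihood, R 4.3.3) over all 17 libraries without covariates, with Benjamini-Hochberg adjustment over 12131 genes and a threshold of 0.05. SE is the absolute log2 fold change over the square root of F. CPM uses TMM sizes, and log2 CPM a prior count of 2. DESeq2 1.42.0, other scalings, no filter, leaving out each library and a replicate block were alternatives. The script was tested on simulated data. Replicates are different animals, and no 2 libraries of a group agreed within sampling noise (lowest chi-square per degree of freedom 3.83). Library numbers follow genotype, so a batch that follows them cannot be told apart from it.

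The members and gene lists were chosen with earlier results of these data known. All 42 members are named; of every other list, the 3 tested genes with the smallest p and the called genes where there were 6 or fewer could be named. Promoter sequences are RefSeq's (GRCm38.p6) and were not tied to the deposited counts by coordinates. 1 further item of the strain's description is not reported here.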

Additional observations from a re-analysis of the deposited data

Results flagged for a closer look

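In 3 of 78 checks of a member within a genotype, 1 library lay farther from the rest than Dixon's 95% criterion allows, and chance flags about 1 in 20 such checks. All 3 were db/db replicate 8. Canx was at 479 CPM there and at 379.9 CPM in the next db/db library. Ddit3 was at 79.7 CPM against 37.1 CPM in the next. Hsp90ab1 was at 2022 CPM against 1282 CPM in the next. The same library had the highest score on the first principal component (79.2), and its part in these values was not tested.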

How the results depend on the processing

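Of the 42 listed genes, 2 were called with RLE size factors, with no scaling factors and with robust on. In that order, 7.20%, 8.10% and 7.34% of all tested genes were called. Without a filter 1 was called (0 higher), with DESeq2 4 (3 lower), without the 4 libraries that stood apart 4 (0 higher, 4 lower) and with the first principal component as covariate 8 (3 higher, 5 lower). The shares of all tested genes called in these settings, in the same order, were 3.28%, 7.40%, 7.22% and 10.9%. With the component Dnajb9, Herpud1 and Syvn1 were higher, and Hsp90aa1, Hsp90ab1, Hspa8, Pdia3 and Pdia4 lower. Other pathway genes called numbered 9 (6 lower) without the 4 libraries and 12 (7 higher, 5 lower) with the component, and 1 was higher without a filter. Both of these settings were chosen after seeing the data, and the cause was not tested.

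Replicate numbers did not pair the animals: same-numbered libraries had correlations of -0.45 to 0.21, and 0 of 8 correlated best with their own number. With the replicate block 435 genes were called (200 higher, 235 lower), 0 of the members (0 higher, 0 lower) and 0 of the other pathway genes (0 higher, 0 lower). Under the block Herpud1 was at 0.37 (edgeR adjusted p = 0.133) and Dnaja1 at -0.57 (0.0925).

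Leaving out 1 library at a time gave 0 to 5 members called (0 to 2 higher, 0 to 4 lower), 3 to 7 other pathway genes (1 to 4 higher, 2 to 5 lower) and 648 to 1246 genes in all. Log2 fold changes ran from -0.0893 to 0.0424 for Canx, -0.0983 to 0.29 for Ddit3, -0.098 to 0.034 for Dnajb11, -0.00268 to 0.26 for Dnajb9, -0.29 to 0.15 for Hspa1a, -0.13 to 1.035 for Hspa1b, -0.18 to 0.00129 for Hspe1, -0.24 to 0.21 for Ppp1r15a, -0.19 to 0.14 for Sdf2l1 and -0.67 to 0.24 for Syvn1.

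Some values changed sign in other settings, the cause not tested. Not all of them were near 0 in the main fit, where Xbp1 was at -0.52 and Hspb1 at -0.56. With no scaling factors Canx was at 0.015 and Dnajb11 at 0.00263. With the replicate block Sdf2l1 was at 0.000678, Syvn1 at 0.076, Ppp1r15a at 0.0884 and Hspa1a at 0.069. Without the 4 libraries Manf was at 0.0294, Syvn1 at 0.58, Ddit3 at -0.0967, Ppp1r15a at 0.41, Hspa1a at 0.24, Dnajb1 at -0.0497 and Hspb1 at 0.0323. With the component Pdia6 was at 0.00858, Dnajb11 at 0.0766, Manf at 0.32, Hyou1 at 0.24, Syvn1 at 0.99, Xbp1 at 0.0841, Ddit3 at -0.22, Ppp1r15a at 0.47, Hspa1a at 0.14 and Dnajb1 at -0.0243. As differences of mean log2 CPM, Syvn1 was at 0.20, Ppp1r15a at 0.0898 and Hspa1a at 0.15 with prior count 2, and at 0.42, 0.12 and 0.16 with 0.5. Low depth kept Chac1, Trib3 and Asns out of the test.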
